A study of Homo sapiens with 7 samples.

Results

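Of the 33069 CTCF peaks that K562 cells without ligand had on chromosomes 1-22 and X, 5344 (16.2%) were isolated and control-only. They were chosen by peak calls alone: no peak of pyridostatin (PDS)-treated cells overlapped them or lay within 1 kb, and no other control peak lay within 1 kb. Of the 33069 peaks, 7268 overlapped no PDS peak, and 1666 of these were lost to a PDS peak within 1 kb. Another 258 were lost to a neighbour within 1 kb in the control list. Because the selection used the calls in both lists, the fold enrichment, p-value and width of these peaks belong to the selection and are given below as a description only.

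The data came from chromatin immunoprecipitation with sequencing (ChIP-seq), in which DNA bound to a protein is recovered with an antibody and sequenced. Control cells were untreated K562 cells, with 2 CTCF samples and 1 IgG sample, and treated cells were K562 cells given 10 μM PDS for 24 h, with 2 CTCF and 2 IgG samples. K562 is an established human leukaemia line of erythroid character, and all samples come from this line, which carries many copy number changes. PDS is a small molecule that binds folded G-quadruplexes (G4s), and IgG is the nonspecific antibody that gives the background. The authors called peaks once per condition on both replicates together, so there are 2 lists and no value per replicate, no SD and no sequencing depth. Treatment and IgG samples differed between the lists at the same time and cannot be told apart here, nor can any difference between the libraries, whose composition the lists do not show. The control list was called on a grid of 60 bp, to which all its starts and widths keep, and the PDS list on one of 50 bp.

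CTCF is a zinc finger protein that binds a GC-rich DNA motif in a fixed orientation. It halts cohesin as cohesin extrudes chromatin loops, and pairs of sites that face each other anchor many of these loops. Methylation of a CpG inside the motif is known to hinder binding at some sites. CTCF also lies near many gene starts and between active and silent domains.

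The isolated control-only peaks were compared with 2 other classes. The first comprised 22259 isolated shared peaks, which are control peaks that overlapped a PDS peak and had no other control peak within 1 kb. The second comprised 2515 isolated PDS-only peaks, chosen in the PDS list by the mirrored rule (7.65% of 32893). Shares carry Wilson 95% confidence intervals, and differences between shares carry Newcombe 95% intervals in percentage points. They express counting error alone, since a peak is no replicate and neighbouring peaks share their surroundings.

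Sequences around the CTCF consensus are shown first, since they carry the difference in base composition described below. The consensus of 15 bases was searched on both strands in the 200 bp at each peak centre. The members below are the 10 with the consensus that had the highest fold, in order of fold. Each is printed 5′ to 3′ in hg19 on the strand of the match, with the match in capitals and 15 bases on either side.

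chr11:71511541-71511660, exon of a noncoding gene, plus strand: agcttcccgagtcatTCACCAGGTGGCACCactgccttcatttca
chr6:73290121-73290360, between genes, minus strand: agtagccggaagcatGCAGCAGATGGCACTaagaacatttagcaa
chr17:15732181-15732360, intron of LINC02087, plus strand: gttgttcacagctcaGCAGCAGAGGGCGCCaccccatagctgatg
chr11:22897501-22897740, intron of a noncoding gene, plus strand: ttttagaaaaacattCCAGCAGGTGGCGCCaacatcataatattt
chr3:148661461-148661580, intron of a noncoding gene, minus strand: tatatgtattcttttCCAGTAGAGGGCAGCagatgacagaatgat
chr2:38104621-38104920, between genes, minus strand: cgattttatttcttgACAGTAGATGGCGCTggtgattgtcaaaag
chr7:103164841-103165080, RELN intron, plus strand: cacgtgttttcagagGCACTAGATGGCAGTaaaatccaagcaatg
chr12:77184721-77185020, ZDHHC17 intron, minus strand: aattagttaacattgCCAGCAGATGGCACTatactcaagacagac
chr20:50859361-50859540, intron of LINC01524, plus strand: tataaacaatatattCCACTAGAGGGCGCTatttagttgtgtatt
chr4:54063481-54063660, SCFD2 intron, plus strand: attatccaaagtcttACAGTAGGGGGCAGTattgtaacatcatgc

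For contrast, these are the 3 isolated shared peaks with the consensus that had the highest fold.

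chr6:37282681-37283040, TBC1D22B intron, minus strand: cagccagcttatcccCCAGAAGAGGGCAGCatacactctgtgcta
chr2:243153721-243153960, between genes, minus strand: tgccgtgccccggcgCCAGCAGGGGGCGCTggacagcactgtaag
chr2:70369741-70370160, between genes, minus strand: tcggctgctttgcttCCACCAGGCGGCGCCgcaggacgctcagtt

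The folds of the 10 members ran from 107 down to 47.5. The GC contents of their 200 bp were 58, 43, 58.5, 38.5, 43, 39, 40, 33.5, 30 and 36% in the order printed, so 8 of the 10 were at 43% or less. Those of the shared peaks were 52.5, 66.0 and 69.0%. The central 50 bases of chr17:15732181-15732360 and of chr2:243153721-243153960 occur at 2 places in the reference, and those of the other peaks printed occur once. RELN encodes the extracellular matrix protein reelin, SCFD2 a protein of the Sec1 family, and ZDHHC17 a palmitoyltransferase.

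In the control list, the fold enrichment of the isolated control-only peaks over IgG had a median of 22.1 (quartiles 13.5 and 27.1, range 3.32 to 124). The isolated shared peaks of the same list had a median of 29.4. The median width was 180 bp against 360 bp, and the median p-value of the authors' caller was 9.83e-07 against 5.37e-10. By p-value, the median member ranked 26206 of 33094. In the PDS list, the isolated PDS-only peaks had a median fold of 13.8 and a median width of 100 bp. These values follow from the selection and support nothing further. Peaks just inside the distance limit, whose nearest peak of either list lay over 1 to 1.5 kb away, numbered 181 and had a median fold of 16.6. The 257 peaks just outside it, at over 0.5 to 1 kb, had a median fold of 16.3. The CTCF consensus, described below, was present in 8.29% of the former and 3.11% of the latter.

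The isolated control-only peaks were low in GC content, a property that the selection did not use. The 200 bp at their centres had a median GC content of 42.0% (quartiles 36.0 and 51.5%), against 54.0% (quartiles 47.5 and 61.5%) for isolated shared and 53.5% for isolated PDS-only peaks. The median was lower than that of shared peaks on 22 of 23 chromosomes. The DNA from 500 to 2000 bp on either side had a median of 41.1% against 46.9% for shared and 46.9% for PDS-only peaks. In the surrounding 100 kb, the medians were 40.6, 45.3 and 45.1%, respectively.

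The share of isolated control peaks that were control-only was 19.4% over all 27603 peaks and changed with GC content in steps. Of the isolated control peaks below 35% GC, 977 of 1330 were control-only (73.5%, interval 71.02 to 75.8%). The share was 56.4% from 35 to 40% GC, 29.6% from 40 to 45% and 14.0% from 45 to 50%. It reached 6.74% (interval 5.90 to 7.69%) from 60 to 65% and was higher again, at 13.3% (interval 12.3 to 14.4%), at 65% GC or more. Among peaks with the CTCF consensus, 114 of 149 were control-only below 35% GC (76.5%, interval 69.1 to 82.6%), whereas from 60 to 65% 11 of 454 were (2.42%, interval 1.36 to 4.29%). At 65% GC or more it was 16 of 434 (3.69%, interval 2.28 to 5.90%), which overlaps the interval of the bin before it.

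The PDS list did not show this pattern. Of 119 isolated PDS peaks below 35% GC, 3 were PDS-only (2.52%, interval 0.861 to 7.15%), and the share was 13.5% from 50 to 55% GC. Over quintiles of the GC content of 100 kb, the PDS-only share stayed between 10.6 and 11.6%. The control-only share over such quintiles was 42.7, 22.8, 12.9, 9.32 and 9.11%, from the lowest GC to the highest.

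**Figure D1:**
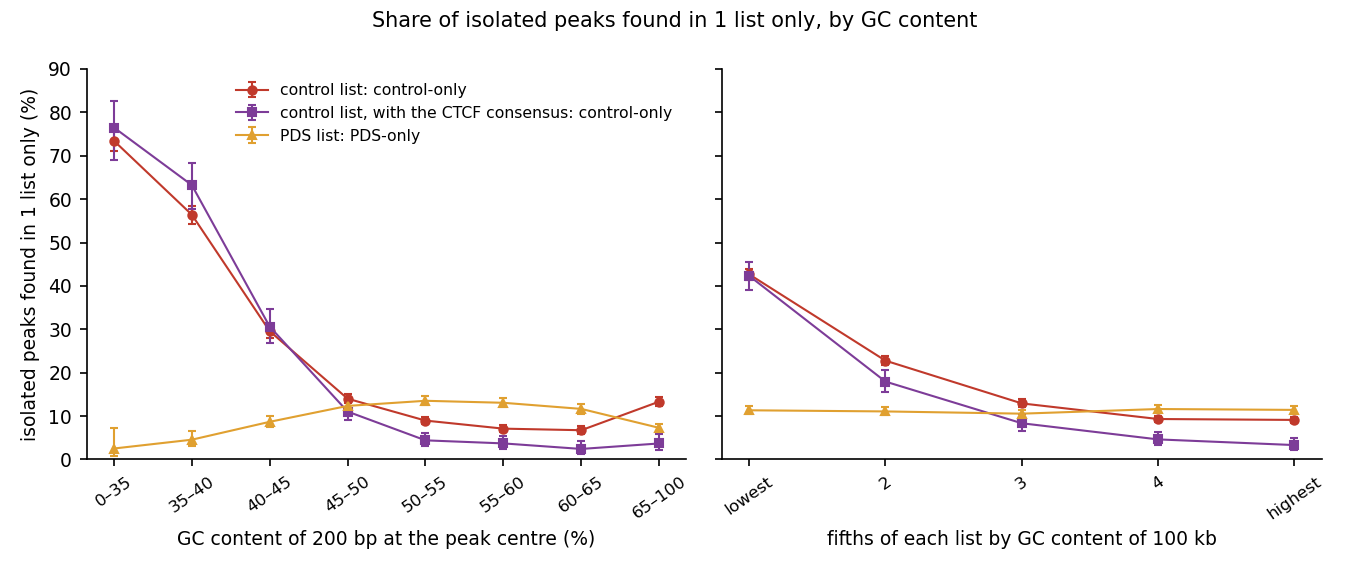
Share of isolated peaks found in 1 list only (y axis, percent) against the GC content of the 200 bp at the peak centre (left) and against quintiles of the GC content of 100 kb, set in each list by itself (right). Points are shares and bars are Wilson 95% intervals. The control-only share is 73.5% below 35% GC and 6.74% from 60 to 65% GC, peaks with the CTCF consensus fall from 76.5 to 2.42% over the same bins, and the PDS-only share stays between 10.6 and 11.6% over the quintiles.

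Since the p-value of a peak belongs to the selection, its relation to the control-only share is given as a description. The share was 1.39, 7.27, 20.4 and 48.4% in the quartiles of isolated control peaks from the smallest to the largest p-value, an order that the calling itself contributes to. In the quartile with the largest p-values, it was 66.0% in the lowest GC quintile and 35.4% in the highest. In the quartile with the smallest p-values, it was 8.09% (47 of 581) in the lowest and 0.283% (6 of 2118) in the highest. The part of peak strength in the GC gradient was not tested.

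The chromosomes differed accordingly. The control-only share ranged from 10.1% on chromosome 19 to 31.5% on chromosome 4. Across the 23 chromosomes, its Spearman correlation with the GC content of the chromosome was -0.98, given as a description because all chromosomes come from the same pair of lists. Chromosome 13 had 26.2% and chromosome X 25%, and chromosomes 16, 17 and 20 had 11.04, 10.6 and 12.4%. Chromosome 22, which is GC-rich, had 14.2%.

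**Figure D2:**
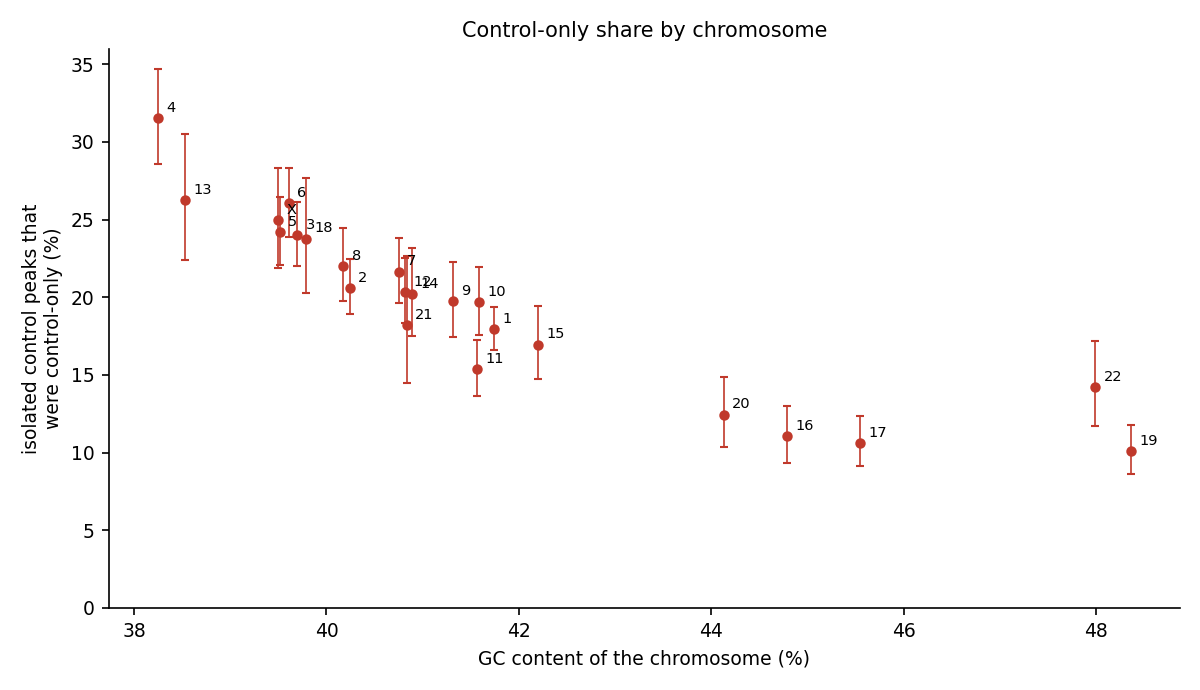
Share of isolated control peaks that were control-only (y axis, percent) against the GC content of each chromosome (x axis, percent). Points are chromosomes with their names and bars are Wilson 95% intervals, and the shares fall from 31.5% on chromosome 4 to 10.1% on chromosome 19.

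The members were split by GC content into a group below 40% with 2203 peaks (41.2%), a group from 40 to 65% with 2562 (47.9%) and a group of 65% or more with 579 (10.8%). The GC-poor group lay in introns of coding genes in 57.0% of cases, was within 1 kb of a coding gene start in 1.04% and had a median of 1 CpG in 200 bp. The GC-rich group was within 1 kb of a coding gene start in 56.5% of cases and had a median of 22 CpGs. Shared peaks of like composition had 42.3% at gene starts and a median of 19 CpGs at 65% GC or more and a median of 1 CpG below 40% GC. PDS-only peaks of 65% GC or more had 40.5% at gene starts and a median of 16 CpGs. Below 40% GC, 47.8% of shared peaks lay in introns of coding genes and 2.62% at gene starts. Of the 31 PDS-only peaks below 40% GC, 20 lay in such introns (64.5%) and 0 at gene starts. The consensus was present in 317 GC-poor members (14.4%) and in 16 GC-rich members (2.76%). Among isolated shared peaks of 65% GC or more it was present in 418 of 3766 (11.1%), and among those below 40% in 153 of 1300 (11.8%). A weight matrix for CTCF sites, described below, matched 32.6% of GC-poor and 30.7% of GC-rich members. Of shared peaks below 40% GC and of 65% or more it matched 28.5 and 53.8%.

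The CTCF consensus was present in the 200 bp of 649 of the 5344 members (12.1%, interval 11.3 to 13.05%). The isolated shared peaks had it in 14.96%, a difference of -2.82 points (interval -3.79 to -1.80), and the isolated PDS-only peaks in 5.88%, a difference of 6.26 points (interval 4.96 to 7.503). Windows of the same length placed 2 kb beside the members, clear of any peak, held it in 10 of 10489 cases (0.0953%). Relative to shared peaks, members had a lower share on 20 of 23 chromosomes. The direction was not the same at every peak width, which belongs to the selection. Peaks of 180 bp had the consensus in 12.1% of members and 10.3% of shared peaks, and peaks of 240 bp in 17.5 and 12.8%. At 120 bp the shares were 8.28 and 9.09%, and from 300 to 420 bp 16.7 and 18.97%. The median width was 180 bp for members and 100 bp for isolated PDS-only peaks. The part of width in the difference between these classes was not tested. In a search of 500 bp on either side, the matches were densest around the peak centre, with 35.6 and 33.1 per 1000 members in the 50 bp before and after it, 30.1 and 30.3 per 1000 in the next 50 bp on each side, and 10.1 and 8.79 per 1000 from 100 to 150 bp. In the bins from 450 to 500 bp away, there were 0.187 per 1000 before the centre.

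**Figure D3:**
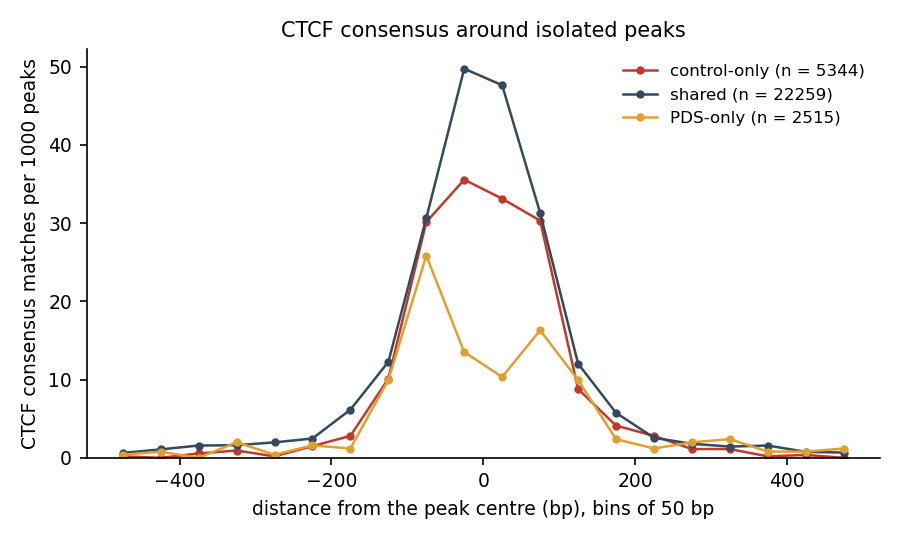
CTCF consensus matches per 1000 peaks (y axis) in bins of 50 bp around the peak centre (x axis, bp) for isolated control-only, isolated shared and isolated PDS-only peaks. Control-only and shared peaks have their highest values beside the centre, at 35.6 and 49.7 per 1000 in the bin just before it. PDS-only peaks have 13.5 there and their highest value, 25.8, in the bin from 100 to 50 bp before the centre, where control-only peaks have 30.1.

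A weight matrix built from shared CTCF sites, which tolerates more departures than the consensus, matched 1809 members (33.9%). It matched 47.3% of isolated shared peaks (difference -13.5 points, interval -14.9 to -12.0) and 25.6% of PDS-only peaks (difference 8.20, interval 6.06 to 10.3). At a stricter limit, reached by 0.1% of windows, it matched 11.7% of members, 24.9% of shared and 9.58% of PDS-only peaks, and the difference from PDS-only peaks was 2.13 points (interval 0.66 to 3.54). Beside the members, 0.543% of windows reached its limit, which was set at 1% of windows beside the isolated peaks of both lists. Since the matrix came from shared control peaks, it may score shared peaks higher for that reason alone, an effect that was not tested. The difference in the plain consensus depended on the surroundings. In the lowest GC quintile, 15.8% of members and 16.02% of shared peaks had it (difference -0.23 points, interval -2.16 to 1.74). In the highest quintile, 4.77% of members and 13.9% of shared peaks had it (difference -9.18, interval -11.01 to -6.76). The difference in the weight matrix match had an interval below 0 in every quintile. It was -7.94 points (interval -10.5 to -5.33) in the lowest, with 36.5% of members and 44.5% of shared peaks, and -20.6 points in the highest. The GC content of the 200 bp themselves gave another picture. Among peaks below 40% GC, members had the matrix match in 32.6% and shared peaks in 28.5% (difference 4.18 points, interval 1.009 to 7.28), and the consensus in 14.4 and 11.8% (difference 2.62, interval 0.29 to 4.86). The median width in this class was 600 bp for shared peaks and 240 bp for members, and the part of width in this was not tested. From 40 to 65% GC and at 65% or more, members had the matrix match less often, by -11.7 points (interval -13.7 to -9.71) and -23.1 points (interval -27.0 to -18.9).

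The matches themselves differed in CpG content. A CpG lay inside the match in 135 of 649 members (20.8%, interval 17.9 to 24.1%) and in 1432 of 3330 shared peaks (43%), a difference of -22.2 points (interval -25.6 to -18.5). Isolated PDS-only peaks had one in 63 of 148 matches (42.6%, interval 34.9 to 50.6%). Most of these CpGs were at positions 12 and 13 of the match, counted from 1 at its 5′ end, in 120 members (18.5%) and 39.9% of shared peaks. Within the lowest GC quintile, the shares with a CpG were 19.4 and 38.3%, a difference of -18.9 points (interval -24.6 to -12.9). The interval lay below 0 in all quintiles except the fourth, where 33 members had a match and it ran from -20.3 to 12.2. The 50 bases on each side of the match had a median GC content of 40% in members and 53.0% in shared peaks. For the match itself the medians were 60 and 66.7%. In the lowest quintile, the 200 bp at the centre of all members and all shared peaks had medians of 37.8 and 47.5%. Local GC content was thus not alike there, and its part in the CpG difference was not tested. Methylation was not measured in these data.

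Orientation was compared as well, since facing motifs anchor loops. Relative to the consensus of the nearest shared peak that has one, the match of a member pointed in the same direction in 46.4% of 649 cases, faced it in 25.7% and faced away in 27.9%. Shared peaks had 49.3, 22.9 and 27.8%, and the intervals of all 3 differences included 0, for the facing class from -0.74 to 6.56 points. The consensus compared with lay a median of 320 kb from that of a member and 142 kb from that of a shared peak. Nearer shared peaks without the consensus were passed over, and loops were not measured.

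A G4 motif, sought on both strands as 4 runs of 3 or more G that are separated by 1 to 7 nt, overlapped the 200 bp of 292 members (5.46%, interval 4.89 to 6.11%). It overlapped 10.6% of isolated shared peaks (difference -5.18 points, interval -5.89 to -4.43) and 8.35% of isolated PDS-only peaks (difference -2.89, interval -4.17 to -1.68). The difference from shared peaks was -10.5 points with loops of 1 to 12 nt and -13.2 points over whole peaks. The whole-peak search covered unequal lengths of DNA, by median 180 bp in members against 360 bp in shared peaks. It found a motif in 5.16% of members. How far the length searched sets the whole-peak difference was not tested. In windows 2 kb beside the peaks, the shares were 2.93% for members, 5.76% for shared and 5.81% for PDS-only peaks, so the surroundings differed in the same direction. The GC-poor members had such a motif in 5 of 2203 cases (0.227%) and the GC-rich members in 197 of 579 (34.0%), against 34.6% of shared peaks of 65% GC or more. In the highest quintile of surrounding GC, 19.1% of members and 18.8% of shared peaks had one, and the difference of 0.25 points had an interval from -3.13 to 4.07. In the lowest quintile, the shares were 1.32 and 5.91%.

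In their gene context, members lay in introns of coding genes more often than shared peaks. The annotation (GENCODE on GRCh37) placed 2553 peak centres there (47.8%, interval 46.4 to 49.1%), against 38.6% of isolated shared peaks (difference 9.14 points, interval 7.65 to 10.6) and 41.5% of PDS-only peaks (difference 6.30, interval 3.95 to 8.64). Outside all annotated genes lay 1500 members (28.1%), against 34.3% of shared peaks (difference -6.26, interval -7.61 to -4.89), and this share was lower in each quintile of surrounding GC. The intron difference was 12.1 points in the lowest GC quintile and -2.07 (interval -6.48 to 2.48) in the highest. Coding exons held 117 members (2.19%) and other exons of coding genes 248 (4.64%).

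**Figure D4:**
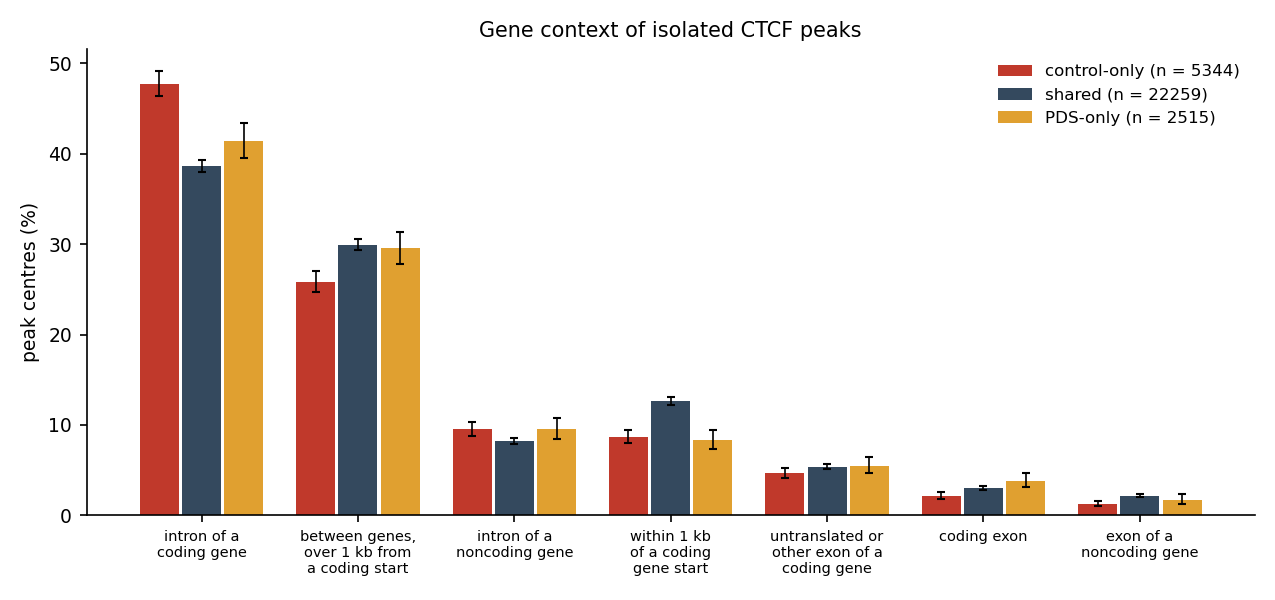
Gene context of the centres of isolated control-only, isolated shared and isolated PDS-only peaks (y axis, percent of each class, bars from 0 with Wilson 95% intervals). Each peak is counted once, with gene starts taken first. Introns of coding genes hold 47.8% of control-only and 38.6% of shared peaks, and gene starts hold 8.68 and 12.7%.

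Within 1 kb of a coding gene start lay 464 members (8.68%, interval 7.96 to 9.47%), fewer than for isolated shared peaks (12.7%, difference -3.99 points, interval -4.84 to -3.10). PDS-only peaks had 8.31%, and that difference was within counting error (0.37, interval -0.98 to 1.66). The direction against shared peaks depended on the surroundings. In the lowest GC quintile, 3.65% of members and 13.6% of shared peaks were at gene starts, whereas in the highest it was 21.3% of members and 15.1% of shared peaks (difference 6.15, interval 2.64 to 10.1).

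The 8 members at coding gene starts with the highest fold had folds from 45.1 to 96.1. The highest, chr17:62915581-62915760, was 0.073 kb from the start of LRRC37A3, a member of a leucine-rich repeat gene family with similar copies, and its window had a GC content of 74.5%. The peaks beside PRELID2, which encodes a protein of the PRELI family (fold 58.0), and LRRC42 (fold 53.3) had 75 and 76.5% GC, and none of these peaks had the consensus. The peak chr5:179105581-179105760 lay 0.042 kb from the start of CANX, which encodes the chaperone calnexin of the endoplasmic reticulum (fold 49.7, GC 66.0%). MRPS30, for a protein of the mitochondrial ribosome, had a peak 0.178 kb from its start (fold 49.4) that was 1177 kb from the nearest shared peak. The peak at PGLYRP3, for a peptidoglycan recognition protein, had a fold of 49.3. By the weight matrix, the peaks at LRRC37A3, PRELID2 and PGLYRP3 had a match, and those at LRRC42, CANX and MRPS30 did not. The remaining 2 had the consensus and less GC. They lay beside TLR6, a receptor of innate immunity (fold 45.8, GC 39.5%), and in CDC20B (fold 45.1, GC 46.0%). Their matches are shown in the same format as above, with the match in capitals.

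chr4:38858461-38858640, 0.113 kb from the TLR6 start, minus strand: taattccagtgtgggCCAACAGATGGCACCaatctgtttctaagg
chr5:54467941-54468300, 0.884 kb from the CDC20B start, plus strand: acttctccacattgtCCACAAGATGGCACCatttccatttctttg

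Members lay in long genes more often than shared peaks. Coding genes of 500 kb or more held 337 members (6.31%) and 3.42% of isolated shared peaks, a difference of 2.89 points (interval 2.22 to 3.61). Genes of 200 to 500 kb held 15.1 and 9.31%, and those under 50 kb held 14.1 and 19.9% (difference -5.77, interval -6.82 to -4.67). In the lowest GC quintile, genes of 200 kb or more held 30.5% of members and 24.2% of shared peaks (difference 6.32, interval 3.94 to 8.70). In the 3 highest quintiles the interval of this difference included 0.

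A member lay inside 2774 of 20098 coding genes. At least 2 members lay in 519 genes and at least 5 in 7. ARL15, which encodes a small GTPase, held 6 members over 427 kb, with folds from 8.54 to 28.4 and a median GC content of 38.2%, beside 2 shared peaks. DLG2, for a synaptic scaffold protein, held 6 members over 2173 kb and 1 shared peak, and 2 of its members had the consensus. RABGAP1L and TBC1D5, for proteins with a Rab GTPase-activating domain, held 6 each, beside 4 and 6 shared peaks. RABGAP1L had the lower median GC content of the pair, at 32.8% against 41.0%.

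CTNNA3, which encodes an alpha-catenin of cell junctions, held 5 members and no shared peak over 1851 kb. Their folds ranged from 6.53 to 41.7, none had the consensus and 3 had a weight matrix match. EXOC6, for a subunit of the exocyst, held 5 members within 233 kb, and IQCJ-SCHIP1 held 5 within 935 kb, of which 2 had the consensus. Per length, DEPDC1B had the most members among the genes named here for their number of members, with 4 in 103 kb, followed by P4HA2, for a subunit of collagen prolyl hydroxylase, with 4 in 105 kb. The median GC content of the P4HA2 members was 57.2%, and that of the DEPDC1B members was 36.0%.

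Gene lists that bear on CTCF or on this cell line were examined by counting genes with a member inside or within 5 kb. Gene length was not matched in any list, and long genes, given below, more often had a member. Of all 20098 coding genes, 17.1% had one and 55.9% had a shared peak. Of 19 genes for CTCF, cohesin and its partners, 7 did (36.8%, interval 19.1 to 59.0%), all 7 also having a shared peak. SMC3, a core cohesin subunit, had 1 member in an exon (fold 22.3), and STAG1 and STAG2, alternative cohesin subunits, had 1 intronic member each (folds 30.9 and 39.3). NIPBL, the cohesin loader, had 2, with folds of 11.3 and 7.51 and GC contents of 30.5 and 27.5%. PDS5B, a regulator of cohesin release, had 3 (folds 24.3, 15.1 and 23.1). YY1, which also takes part in looping, had 1 in an intron, and ZNF143 had 1 within 5 kb. None of these members had the consensus.

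Of 16 blood transcription factor genes, 3 had a member (18.8%, interval 6.59 to 43.01%), near the share of all coding genes. GATA2, a factor of blood stem and progenitor cells, had 1 (fold 30.9), and RUNX1, a factor of blood cell development, had 3, of which the one at chr21:36399061-36399240 had a GC content of 65%. BCL11A, a repressor of fetal globin, had 1 (fold 29.1) and no shared peak. The only member near the globin genes, chr11:5391181-5391360, lay in a long intron that the annotation assigns to HBG2, HBE1 and OR51B5 together. Of 21 imprinted genes, 3 had a member (14.3%, interval 4.98 to 34.6%), near the share of all coding genes, and 57.1% had a shared peak. A single peak fell in KCNQ1 and its antisense RNA KCNQ1OT1, and another in L3MBTL1, with a GC content of 76.0%.

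None of the 39 HOX genes had a member, while 74.4% had a shared peak. The upper end of the Wilson interval for this count was 8.97%. In the clustered protocadherins, 11 of 51 genes had a member, but they rested on 3 peaks, because 1 peak at chr5:140220721-140220900 lay within 8 overlapping PCDHA genes. Olfactory receptor genes had a member in 13 of 399 cases (3.26%) and a shared peak in 6.52%. Zinc finger genes of chromosome 19 had one in 13 of 240 (5.42%), at gene starts in several cases, and a shared peak in 31.7%. Of the 323 coding genes of 500 kb or more, 179 (55.4%, interval 50.0 to 60.7%) had a member and 71.2% a shared peak. Gene length was not matched in this count.

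Members lay farther from shared peaks than shared peaks lay from each other. The distance from a member to the nearest shared peak had a median of 35.2 kb (quartiles 12.1 and 90.3 kb), against 17.2 kb (quartiles 6.36 and 43.9 kb) from an isolated shared peak to the next. From isolated PDS-only peaks to the nearest shared peak of the PDS list it was 18.0 kb. Within 10 kb of a shared peak lay 1165 members (21.8%), from 10 to 100 kb away 2960 (55.4%), from 100 to 1000 kb 1150 (21.5%) and farther still 69 (1.29%). The difference was smaller among peaks with like surroundings. In the lowest GC quintile the medians were 73.2 and 62.2 kb, and in the highest both were 8.94 kb. The median distance to the nearest coding gene start was 37.5 kb for members, 22.2 kb for shared and 28.6 kb for PDS-only peaks.

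**Figure D5:**
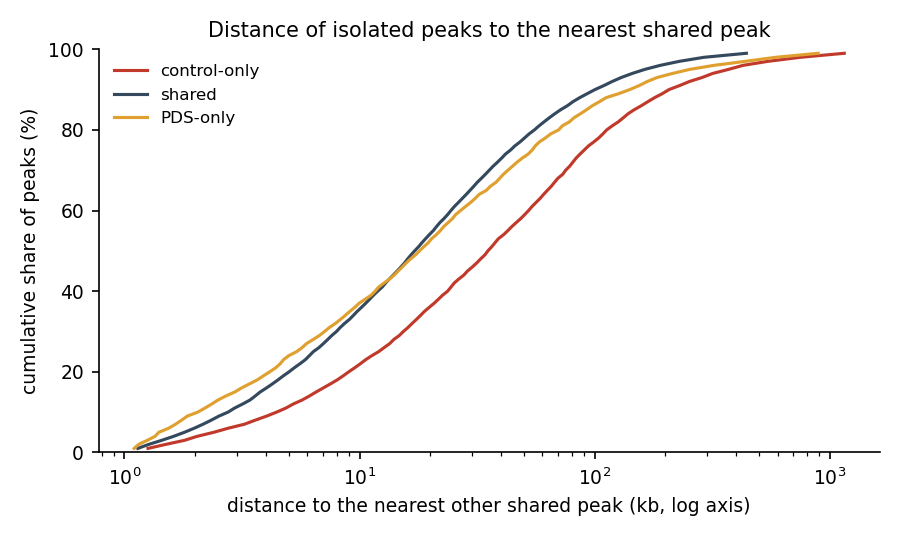
Cumulative share of isolated peaks (y axis, percent) by the distance to the nearest shared peak of the same list (x axis, kb, log scale). The curve of control-only peaks lies to the right of both others, with a median of 35.2 kb against 17.2 kb for shared and 18.0 kb for PDS-only peaks.

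The 3 most distant members lay together on chromosome 3, at and beside GBE1, which encodes the glycogen branching enzyme. The nearest shared peak was 4590 kb from chr3:81959641-81959760, 4346 kb from chr3:81715801-81715980 and 4170 kb from chr3:81539641-81539940. Their folds were 9.10, 24.0 and 18.4, and only the last had the consensus.

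Members were also found next to each other. The nearest isolated neighbour in the control list was control-only for 1516 members (28.4%, interval 27.2 to 29.6%) and for 16.3% of isolated shared peaks, a difference of 12.1 points (interval 10.8 to 13.4). Within the lowest GC quintile the shares were 41.8 and 38.4%, within the third 14.4 and 12.6%, and within the fourth 9.14 and 8.84%. The interval of the difference included 0 in the third and the fourth (-0.79 to 4.70 and -2.04 to 3.21 points) and lay above 0 in the others. Ordered along the chromosomes with all control peaks, 3054 members stood alone between other peaks, and 631 pairs of members followed each other. Runs of 3 or more numbered 296 and held 1028 members (19.2%).

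Among the runs described here, one of 7 members covered 864 kb of chromosome 4 around HPGDS, PDLIM5, BMPR1B and UNC5C, with a median GC content of 39.0%. Another of 6 covered 531 kb of the SPINK gene cluster on chromosome 5, which encodes serine protease inhibitors. The 5 tightest runs of 3 or more spanned at most 16.8 kb. The tightest spanned 9.42 kb near METRNL (chr17:81025741-81035160, median GC 61.0%), and the next spanned 10.4 kb at IRF2BP2 (median GC 70.5%). Those in DLG2 (11.5 kb), IQCJ-SCHIP1 (14.3 kb, 4 members, 2 with the consensus) and CDC20B with GPX8 (16.8 kb) had median GC contents of 35.5, 38.0 and 46.0%.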

How the data were processed

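Reads were aligned to hg19 with Bowtie2 2.2.3 by the authors, who removed duplicate, non-unique and low-quality alignments and called peaks with PePr on both replicates of a condition over IgG. The version of PePr is not given in the sources used here. The score deposited for each peak was not used. The fold enrichment over IgG and the p-value of each peak were computed by the authors and served only to describe and rank peaks of a list. The lists hold no read counts, so depth is unknown.

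Peaks on chromosomes 1-22 and X were classed by position, with overlap meaning at least 1 bp. Sequence was read from GRCh37 and gene context from GENCODE 44 on GRCh37. The 23-column weight matrix came from 1192 consensus matches with at most 1 mismatch in shared control peaks that had another control peak within 1 kb. The quintiles of GC content of 100 kb were set over all isolated control peaks. The genes named are the members with the consensus and at coding gene starts with the highest folds, the genes with the most members, the tightest runs, the most distant members and fixed gene lists, from which examples are given. The runs of 6 and 7 members were chosen after their values were seen. The members and lists were chosen with earlier results of these data known. No set test or random placement was used. A few items that the rules select are not reported here. Motif search, classes and intervals were tested on simulated data. Tables were computed with pandas 2.3.3 and scipy 1.17.1 in Python 3.11.15, sequence was read with pyfaidx 0.9.0.4, and figures were drawn with matplotlib 3.10.9.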

Additional observations from a re-analysis of the deposited data

How the results depend on the processing

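No paired analysis was possible because the authors called peaks on the replicates of a condition together, and leaving out a replicate gave no value either. Of 65 alternative values, 47 kept their direction and their side of 0, or stayed within the interval of the reported share or within 1.5 times the reported count. The number of isolated control-only peaks fell from 5344 to 1458 when only folds at or above the median of the control list were kept. The share of members with the CTCF consensus was 6.12% in windows of 100 bp, 15.2% in windows of 400 bp and 41.2% with 1 mismatch. The share with a weight matrix match was 18.6 and 43.9% in those windows and 11.7% at the limit of 0.1%. The share at a coding gene start was 6.79, 10.8 and 16.3% within 0.5, 2 and 5 kb, and 12.1% with the starts of all annotated genes. The share between genes was 39.6% with coding genes only, and the share with a G4 motif was 10.0% with loops of 1 to 12 nt. These alternatives change what is counted. Differences from isolated shared peaks kept their direction and their side of 0 under all the alternatives planned for them.

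The GC quintiles were added after the data were seen. In the lowest, the difference in the consensus was -0.23 points, with an interval that included 0. In the highest, the difference at coding gene starts turned to 6.15 points and that in G4 motifs to 0.25 points, the latter with an interval that included 0. The cause was not tested. The difference between genes kept its direction and side of 0 in both of these quintiles. So did that in control-only neighbours, but it was 3.42 points in the lowest and 3.98 in the highest, against 12.1 over all, and in the third and the fourth its interval included 0. Among peaks below 40% GC in their own 200 bp, an alternative also added after the data were seen, the differences in the consensus and in the matrix match turned to 2.62 and 4.18 points. In the other classes of this GC content they kept their direction. The other isolation distances, of 0.5 to 5 kb, were run for the shares of members with the consensus and between genes. The removal of chromosomes 9 and 22 was run for the shares with the consensus and with a control-only neighbour. None of these shares left its interval, and the other shares were not run under these alternatives. Depth is unknown, so how far the weaker peaks depend on it cannot be given.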
